A study of Mus musculus with 6 samples.

Results

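The Ly6 proteins of double negative T cells were followed here through 6 genes, Ly6a, Ly6c1, Ly6c2, Ly6d, Ly6e and Ly6k, out of 29393 genes in the count table. The 6 were selected on gene family and on their counts and fold changes in the same IL-10 comparison, which were already known, so every value of this comparison is a description of them and not an independent test. A member with fewer than 10 counts in all libraries was taken as not measured, which left 5 of the 6. The same 5 met the filter for testing, 10 counts or more in at least 3 libraries.

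Ly6 proteins are small cell surface proteins built on a compact cysteine-rich fold, the LU domain, which they share with the urokinase receptor uPAR. Most have no transmembrane segment and are held in the outer leaflet of the membrane by a glycosylphosphatidylinositol (GPI) anchor. In lymphocytes they are best known as markers: Ly6a (Sca-1) marks blood stem cells and activated T cells, the Ly6C proteins mark monocytes and memory T cells, and Ly6d marks lymphoid progenitors that are committed to the B cell lineage. Ly6a and Ly6e are also known as genes that interferons induce.

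The study measured RNA of double negative T cells, which are T cells without CD4 and CD8 on their surface. The labels give C57BL/6 adult mice, spleen and a sort by flow cytometry, and the methods describe cells converted in culture from CD4+CD25- T cells with mature dendritic cells and IL-2 before sorting. The W/ IL-10 group had 50 ng/ml IL-10 for 24 h and the W/O IL-10 group had none, with 3 libraries each. The methods also describe stimulation through CD3 and CD28 in the IL-10 experiments, which all libraries would then share. No source said whether the 3 libraries of a group came from separate cultures or animals, so p-values measure the spread between these libraries, which may be technical.

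Library totals lay between 21619420 and 23967088 counts. Levels are given as CPM, the counts divided by library size and scaled with TMM factors of 0.953 to 1.03. Cd3e, a chain of the T cell receptor complex, was at 219 to 345 CPM and Cd4 at 0.351 to 1.55 CPM, whereas Cd8a was at 95.8 to 169 CPM and Cd8b1 at 32.6 to 66.7 CPM, so transcripts of both CD8 chains were present under the double negative label. None of 7 B cell markers was at 0 in any library, with a summed level of 217 to 414 CPM W/O IL-10 and 179 to 288 CPM W/ IL-10. W/O IL-10 replicate 1 had the lowest share of counts on the mitochondrial genome, 1.34% against 2.20 to 2.79% in the other 5 libraries.

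All 6 genes lie within a short stretch of chromosome 15 (build GRCm38, annotation GENCODE M21). From the lowest coordinate upwards these are Ly6d (chr15:74762056-74763620, minus strand), Ly6k (chr15:74796874-74799986, minus), Ly6e (chr15:74955051-74959905, plus), Ly6a (chr15:74994877-74998031, minus), Ly6c1 (chr15:75044018-75048830, minus) and Ly6c2 (chr15:75108158-75111970, minus). Near-identical neighbours matter for counting, and the most alike are Ly6c1 and Ly6c2, whose coding sequences were 97.7% identical, with 9 of 396 bases differing. A run of 188 coding bases, from position 66 to 253 counted from the A of the start codon, had no difference. Of the 9 differences 6 fall in positions 6 to 65. That stretch is printed for the pair because it holds most of the coding differences, with the bases that differ between them in capitals, as annotated in Ly6c1-201 and Ly6c2-201.

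Ly6c1: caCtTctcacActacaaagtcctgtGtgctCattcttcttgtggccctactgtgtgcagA
Ly6c2: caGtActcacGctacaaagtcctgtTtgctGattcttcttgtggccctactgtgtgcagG

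Read from Ly6c1 to Ly6c2, the 9 differences were C8G, T10A, A16G, G31T, C36G, A65G, G254A, T327C and G376A. The same 60 bases are given for Ly6a (Ly6a-201), the member that rose, and for Ly6g (Ly6g-202), the gene of the granulocyte marker Gr-1, with capitals where each differs from Ly6c2. Ly6a differed at 4 and Ly6g at 11 of the 60.

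Ly6a: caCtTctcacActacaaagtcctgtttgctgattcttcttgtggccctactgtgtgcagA
Ly6g: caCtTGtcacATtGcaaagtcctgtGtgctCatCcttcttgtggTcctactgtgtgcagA

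Over the whole coding sequence Ly6a was 81.7% identical to Ly6c2, 86.4% to Ly6i, 52.2% to Ly6e and 45.7% to Ly6d. Of all 50-base stretches in the annotated transcripts of Ly6c1, 32.8% also occurred in another gene, 21.5% in Ly6c2 and 11.1% in Ly6a. The share was 14.5% for Ly6c2 and 19.0% for Ly6a, while Ly6d and Ly6e shared none. How the counting treated reads that fit several genes was not given in the sources used here. The counts of Ly6c1 are therefore uncertain, and those of Ly6a and Ly6c2 less so. For Ly6d and Ly6e no such shared stretch was found. The search covered exact matches between annotated transcripts only, not inexact matches or the rest of the genome.

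The promoters of Ly6c1 and Ly6c2, as RefSeq gives them for GRCm38.p6, differed far more than the coding sequences. They are shown because the pair, so alike in coding sequence, lay so far apart in counts. The part of the promoters in that difference was not tested. The windows with the most identical bases between the genes were aligned, and in the aligned part 208 of 282 columns (73.8%) were identical. Capitals mark bases that differ from the other gene or have no partner in it. The windows are chr15:75048788-75049056 for Ly6c1 and chr15:75111943-75112221 for Ly6c2, both on the minus strand, read 5′ to 3′ and ending just past the start of the gene.

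Ly6c1: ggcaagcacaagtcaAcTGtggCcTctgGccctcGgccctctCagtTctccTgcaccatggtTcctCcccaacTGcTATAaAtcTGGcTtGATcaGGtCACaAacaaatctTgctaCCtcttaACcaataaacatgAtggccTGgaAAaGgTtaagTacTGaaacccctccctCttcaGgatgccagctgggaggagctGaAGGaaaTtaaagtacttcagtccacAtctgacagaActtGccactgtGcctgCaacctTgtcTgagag
Ly6c2: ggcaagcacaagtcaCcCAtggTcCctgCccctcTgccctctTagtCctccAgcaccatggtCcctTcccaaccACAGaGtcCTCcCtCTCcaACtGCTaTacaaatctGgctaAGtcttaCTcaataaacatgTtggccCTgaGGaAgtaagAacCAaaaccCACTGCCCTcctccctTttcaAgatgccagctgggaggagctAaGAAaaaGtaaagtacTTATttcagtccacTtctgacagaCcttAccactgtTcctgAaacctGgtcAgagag

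The full windows of 300 bases, 2 for each gene, were searched on both strands for TTCNNNGAA, the palindrome that STAT factors are known to bind, for the same palindrome with 1 more base in its centre, and for the core of the interferon-stimulated response element. No window held any of these, which in that order occurred in 8.30%, 6.95% and 3.44% of 32851 mouse promoters of that length. The absence says only that these letters are not in these windows.

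Ly6a was the member with the clearest difference. Its counts were 6453, 5497 and 5176 W/O IL-10 and 13832, 13026 and 12477 W/ IL-10, which is 264, 227 and 223 CPM against 672, 578 and 547 CPM. The groups were far apart, since the lowest value with IL-10 was more than 2 times the highest value without it. Mean levels were 238 ± 22.3 CPM (SD, n = 3) and 599 ± 65.2 CPM (SD, n = 3). In edgeR's quasi-likelihood test over all genes, Ly6a rose 2.52-fold, a log2 fold change of 1.33 with SE 0.11 and an adjusted p of 0.000924, the 11th smallest p of 14916 tested genes. In bulk RNA a larger number of cells with a transcript and more RNA per cell cannot be told apart.

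Ly6c2, the main gene for the Ly6C antigen in these cells by its counts, stood between. Its levels were 567, 308 and 413 CPM W/O IL-10 and 750, 634 and 693 CPM W/ IL-10. The groups did not overlap, but W/O IL-10 replicate 1 lay closer to W/ IL-10 replicate 2 than to either library of its own group. Mean levels were 429 ± 130 CPM (SD, n = 3) and 692 ± 57.8 CPM (SD, n = 3). The log2 fold change was 0.69 with SE 0.19, 1.61-fold, and the edgeR adjusted p was 0.123, so Ly6c2 did not pass. Without W/O IL-10 replicate 1 the log2 fold change was 0.93 with an adjusted p of 0.00144 by the same test, and without W/O IL-10 replicate 2 it was 0.49 with an adjusted p of 0.228. DESeq2 on all libraries gave 0.69 with an adjusted p of 0.0047, and limma-voom gave 0.73 with an adjusted p of 0.106. By edgeR on all libraries Ly6c2 passed without a filter on low counts (adjusted p 4.93e-08) and with replicate number as a block (adjusted p 0.0419). The call for Ly6c2 therefore turned on the tool, the filter, the model and 1 library.

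Ly6e, which codes for a thymocyte and T cell surface protein also known for limiting the entry of coronaviruses, had the highest counts of the members and the smallest fold change of the 5 measured. Levels were 1191, 994 and 1034 CPM W/O IL-10 and 1168, 1142 and 1137 CPM W/ IL-10. The groups overlapped, since the highest value of all was W/O IL-10 replicate 1. Means were 1073 ± 104 CPM (SD, n = 3) and 1149 ± 16.6 CPM (SD, n = 3), with a log2 fold change of 0.10, SE 0.09 and an edgeR adjusted p of 0.668.

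**Figure D1:**
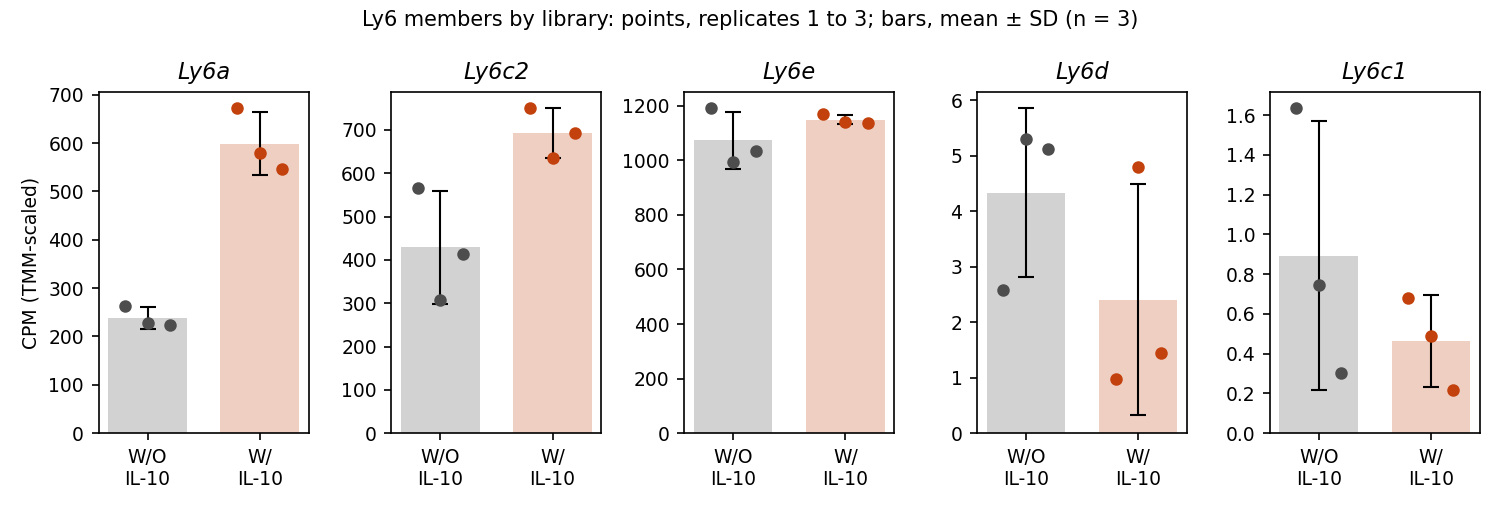
Levels of the 5 measured Ly6 members in each library, in TMM-scaled CPM on linear axes that start at 0 and differ between panels. Points are replicates 1 to 3 from left to right, bars the mean and whiskers the SD of 3 libraries; Ly6a and Ly6c2 have no overlap between the groups, and Ly6e, Ly6d and Ly6c1 overlap.

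Ly6d and Ly6c1 were low. Ly6d had 63, 128 and 119 counts W/O IL-10 and 20, 108 and 33 counts W/ IL-10. In CPM these were 2.57, 5.29 and 5.13 against 0.972, 4.80 and 1.45, so 1 library with IL-10 lay among those without it. Means were 4.33 ± 1.52 CPM (SD, n = 3) and 2.40 ± 2.08 CPM (SD, n = 3). The log2 fold change of Ly6d was -0.84 with SE 0.54 and an edgeR adjusted p of 0.521. Leaving out W/ IL-10 replicate 2 moved it to -1.83, and leaving out W/ IL-10 replicate 1 to -0.47, with neither passing the test (adjusted p 0.113 and 0.781 by edgeR).

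Beside Ly6d stand the B cell markers, which also differed from library to library. The libraries highest and lowest for Ly6d, W/O IL-10 replicate 2 and W/ IL-10 replicate 1, were also highest and lowest for the summed level of the 7 B cell markers, 414 and 179 CPM. Over the 6 libraries the log2 level of Ly6d and that of the marker sum had a Pearson r of 0.90, that of Ly6c2 -0.89, Ly6e -0.83, Ly6a -0.63 and Ly6c1 0.08. These are descriptions over 6 libraries of 2 groups that share their totals and scaling. All 7 markers had a negative log2 fold change with a median of -0.49, none was past the threshold (edgeR, 1 at an unadjusted p under 0.05; DESeq2 and limma-voom, 0) and none had groups that did not overlap. The part of B cell RNA in the Ly6 values was not tested.

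**Figure D2:**
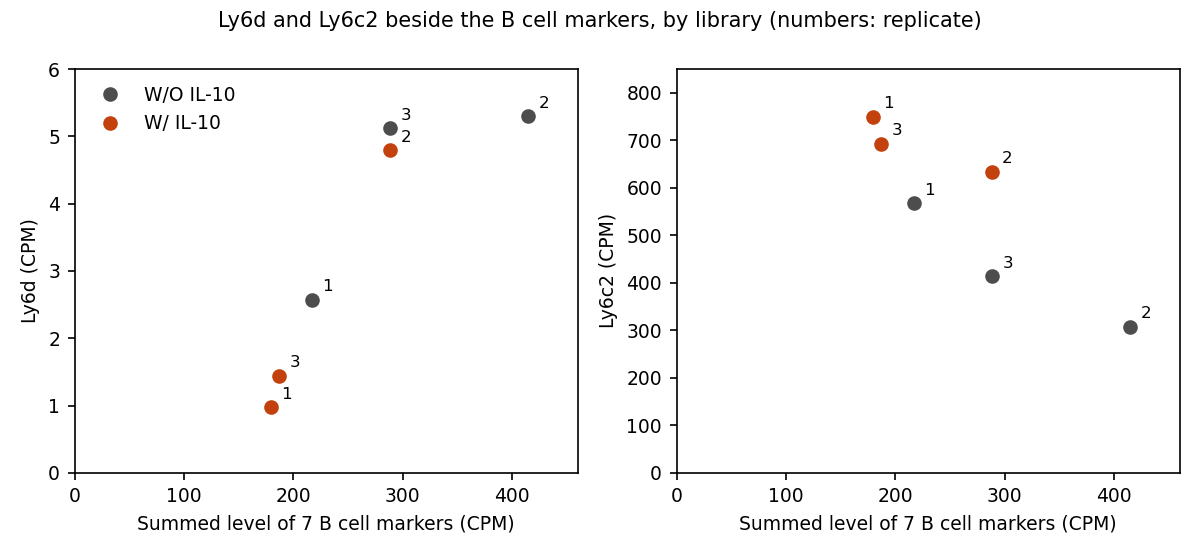
Level of Ly6d (left) and Ly6c2 (right) in CPM against the summed CPM of 7 B cell markers in each of the 6 libraries, with the replicate number beside each point and grey for W/O IL-10, orange for W/ IL-10. Ly6d is highest where the sum is highest, 414 CPM, and lowest where it is lowest, 179 CPM, and Ly6c2 runs the other way.

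Ly6c1, the near copy of Ly6c2, had 40, 18 and 7 counts W/O IL-10 and 14, 11 and 5 counts W/ IL-10, so 2 of the libraries were below 10 counts. It was the member just inside the limit of measurement. Means were 0.893 ± 0.679 CPM (SD, n = 3) and 0.463 ± 0.232 CPM (SD, n = 3), with overlap. The log2 fold change was -0.96 with SE 0.64 and an edgeR adjusted p of 0.540. Without W/O IL-10 replicate 1, its highest library, it was -0.21 with an adjusted p of 0.924. That library also had the highest summed level of 7 neutrophil markers, 9.23 CPM against 3.14 and 3.23 CPM in the other W/O IL-10 libraries and 2.02 to 3.35 CPM W/ IL-10, with 1 or 2 of the 7 at 0 in each library. The part of other blood cells in the Ly6c1 counts was not tested. Ly6c2 had 347 to 1371 times the counts of Ly6c1 W/O IL-10 and 1102 to 3163 times W/ IL-10, and these ranges overlapped.

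Ly6k, which is known for its role in sperm, was just outside the limit and not measured. It had 1, 0 and 1 counts W/O IL-10 and 1, 1 and 0 counts W/ IL-10, where the level of 3 counts, the upper limit that a count of 0 allows for counting error alone, was 0.123 to 0.146 CPM. Of its exon bases 47.6% lie under a gene on the opposite strand, Gm17189, and the strand setting of the counting was not given in the sources used here, so even these counts cannot be placed on either gene.

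To compare members with each other, levels were divided by the length of all annotated exons. W/O IL-10 the order was Ly6e at 284 ± 27.5, Ly6a at 198 ± 18.5 and Ly6c2 at 157 ± 47.6 CPM per kb (SD, n = 3). The libraries of Ly6a and Ly6c2 overlapped on that scale, at 185 to 219 and 112 to 207 CPM per kb, and those of Ly6e did not overlap with either. W/ IL-10 Ly6a came first at 497 ± 54.1, before Ly6e at 304 ± 4.37 and Ly6c2 at 253 ± 21.1 CPM per kb (SD, n = 3), and no neighbours in that order overlapped. Ly6d followed at 5.82 ± 2.05 and 3.23 ± 2.80 CPM per kb, and Ly6c1 at 0.533 ± 0.405 and 0.276 ± 0.138 CPM per kb (SD, n = 3). With the longest transcript as the length, the order was the same in both groups. The order still depends on the length chosen. The transcripts used for the coding sequences, Ly6c2-201 and Ly6a-201, have 822 and 819 bases. Ly6c2 had 1.35 to 2.15 times the counts of Ly6a W/O IL-10 and 1.10 to 1.27 times W/ IL-10. On those lengths Ly6c2 would therefore stand above Ly6a in both groups. By mean level per kb over the 6 libraries, Ly6a, Ly6e and Ly6c2 stood above 99.2%, 99.1% and 98.7% of the tested genes with a length, Ly6d above 46.9% and Ly6c1 above 11.7%.

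**Figure D3:**
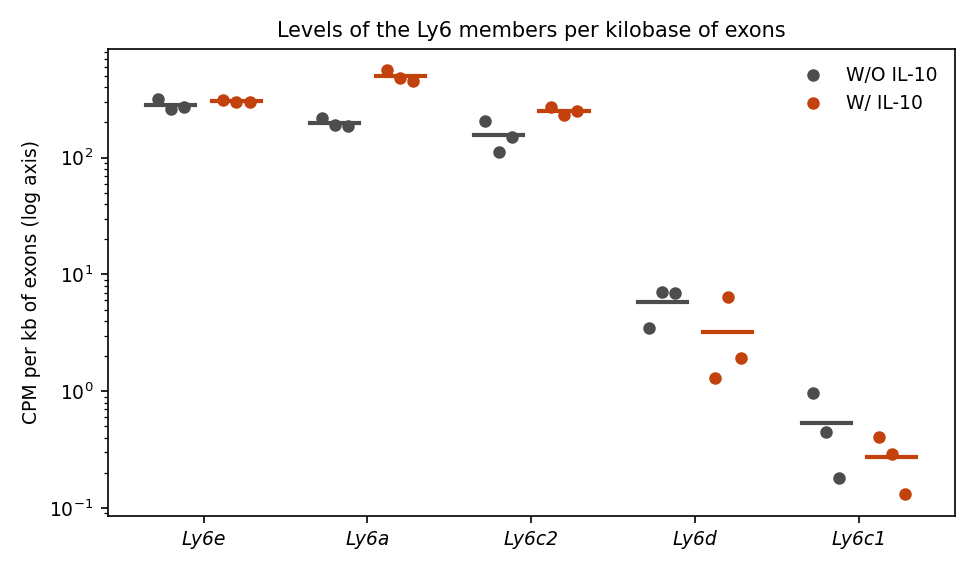
Level per kilobase of annotated exons for the 5 measured Ly6 members on a log axis, W/O IL-10 in grey and W/ IL-10 in orange, with points for the 3 libraries and a line for their mean. On this length Ly6e is highest without IL-10 at 284 CPM per kb and Ly6a with IL-10 at 497 CPM per kb. Ly6d and Ly6c1 lie far below.

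The make-up of the Ly6 counts differed with it. Ly6a made up 13.0 to 14.8% of the summed counts of the 6 members W/O IL-10 and 23.0 to 25.9% W/ IL-10. The share of Ly6e was 58.8 to 64.7% and 45.1 to 48.4%, and that of Ly6c2 was 20.0 to 28.0% and 26.9 to 29.1%. The ratio of Ly6e to Ly6a counts within a library, which no scaling factor changes, was 4.37 to 4.64 W/O IL-10 and 1.74 to 2.08 W/ IL-10. Together the 6 genes held 0.158 to 0.207% of all counts W/O IL-10 and 0.232 to 0.247% W/ IL-10.

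The members also differed in how far replicates lay apart. The SD of log2 CPM was 0.13 and 0.15 for Ly6a without and with IL-10, close to the medians of all tested genes, 0.16 and 0.14. For Ly6c2 it was 0.44 and 0.12, and for Ly6e 0.14 and 0.02, both narrower W/ IL-10. Ly6d had 0.57 and 1.15 and Ly6c1 1.07 and 0.68, the widest of the members, and both had the lowest counts of the 5.

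By edgeR, 1 of the 5 measured members was past the threshold of a 1.5-fold change and an adjusted p under 0.05, where 217 of 14916 tested genes (1.45%) were, 116 higher (0.778%) and 101 lower (0.677%) W/ IL-10. Of the members 2 had groups that did not overlap, Ly6a and Ly6c2, where 22.6% of all tested genes had. Nothing is read from these counts, because the members were chosen with this comparison known. Over the settings tried, which changed the tool, the scaling, the filter or the libraries, the log2 fold change of Ly6a stayed between 1.24 and 1.40 with an adjusted p of at most 0.00778, and that of Ly6c2 between 0.49 and 0.93.

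**Figure D4:**
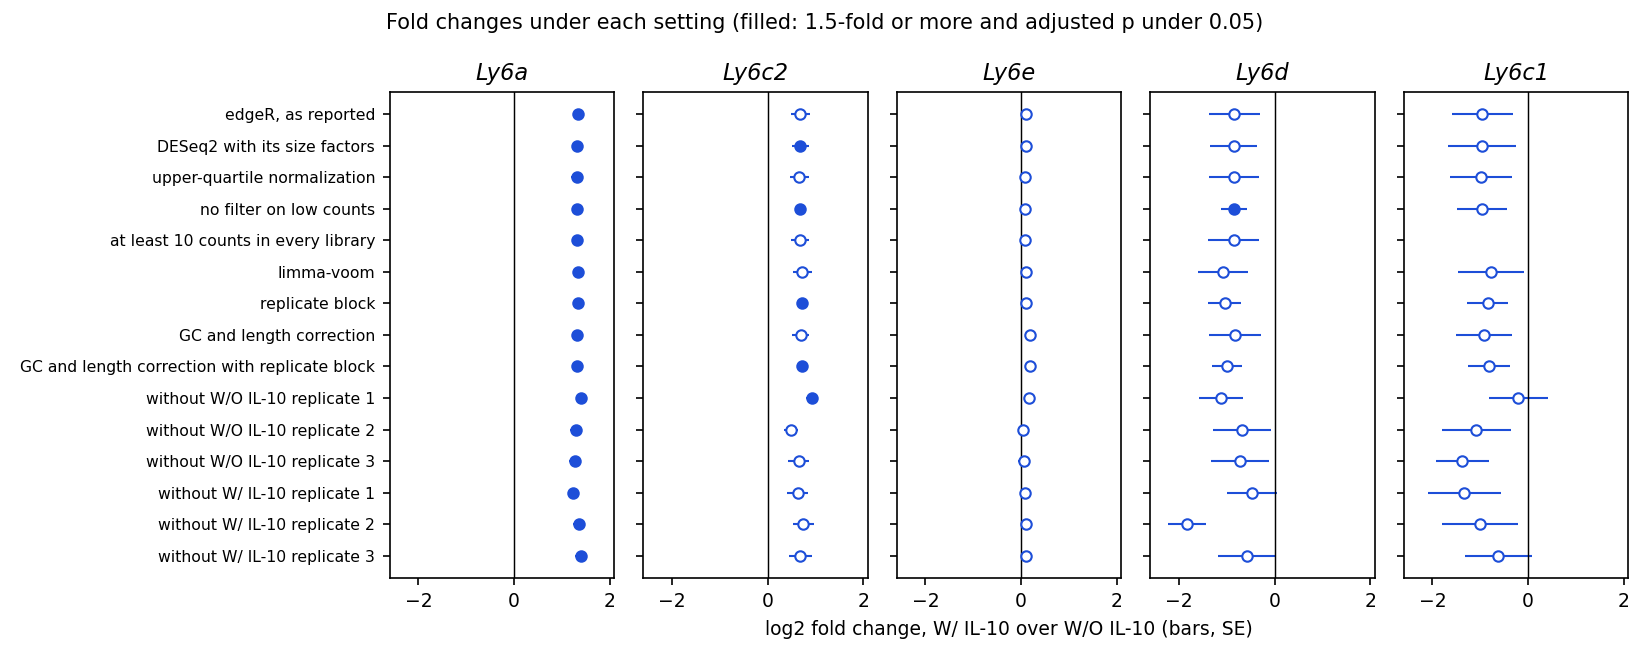
Log2 fold change, W/ IL-10 over W/O IL-10, with its SE for the 5 measured members under each setting, filled where the change is at least 1.5-fold with an adjusted p under 0.05. Ly6a is filled throughout between 1.24 and 1.40, Ly6c2 only under some settings, Ly6d only without a filter on low counts, and Ly6e and Ly6c1 under none; Ly6c1 has no value where every library needs 10 counts.

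Around the members stands the wider Ly6/uPAR family, a list of 43 genes of which 23 were in the table and 13 were tested. Ly6a was the 1 past the threshold, and the median log2 fold change of the 13 was -0.34, against 0.01 over all tested genes. Of the 8 tested relatives that are not members, none was past the threshold by edgeR, DESeq2 or limma-voom, none had an unadjusted p under 0.05 by edgeR, and none had groups that did not overlap.

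Ly6g, a neighbour of the Ly6c genes and the classic neutrophil marker, had 87, 38 and 24 counts W/O IL-10 and 99, 82 and 73 counts W/ IL-10, with a log2 fold change of 0.91, SE 0.41 and an edgeR adjusted p of 0.351. It was the 1 relative with a positive value. By edgeR Ly6g passed the threshold without a filter on low counts and when W/O IL-10 replicate 1 was left out. The 4 tested neutrophil markers beside it had negative log2 fold changes with a median of -0.96, and none was past the threshold. The groups of 2 of them, S100a8 and S100a9, did not overlap, beside 22.6% of all tested genes. S100a9 was at 0.777 to 2.53 CPM and Cxcr2 at up to 3.11 CPM, and Elane was at 0 in 5 of the 6 libraries. The part of neutrophil RNA in the Ly6g counts was not tested. The other 7 relatives had negative values, from -0.06 for Plaur, the gene of uPAR, to -0.97 for Lypd6. Lypd6 and Lypd6b, Lynx1, which codes for a modulator of nicotinic receptors, and Cd59a, a brake on complement, had log2 fold changes of -0.97, -0.40, -0.70 and -0.36. Ly6g5b was at -0.33 and Cd177, a neutrophil surface protein, at -0.34. Cd59b had 15, 9 and 5 counts W/O IL-10 and 7, 4 and 7 counts W/ IL-10 and was not tested.

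**Figure D5:**
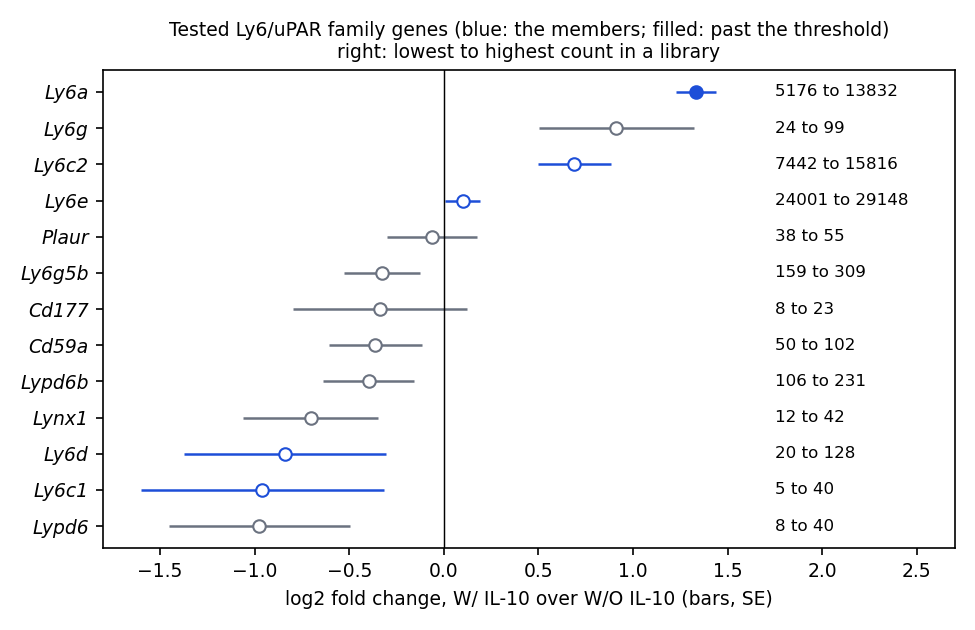
Log2 fold change, W/ IL-10 over W/O IL-10, with its SE for the 13 tested Ly6/uPAR family genes, members in blue and relatives in grey, with the lowest and highest library count on the right. Ly6a is the filled point, the 1 past the threshold, and 9 of the 13 lie below 0, each with at most 309 counts in any library.

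The GPI anchor, which holds most Ly6 proteins on the membrane, is built and attached by a long chain of enzymes. Of 31 tested genes of that pathway none was past the threshold by edgeR, DESeq2 or limma-voom, and their median log2 fold change was 0.02. Groups did not overlap for 2 of the 31, beside 22.6% of all tested genes. By edgeR 1 had an unadjusted p under 0.05, where 14.7% of all tested genes had. That 1 gene was Piga, a subunit of the first enzyme of the pathway, named here after its values were seen, at 25.1 ± 5.21 CPM (SD, n = 3) W/O IL-10 and 33.5 ± 4.32 CPM (SD, n = 3) W/ IL-10, log2 fold change 0.42, SE 0.16 and edgeR adjusted p 0.263.

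Interferon-stimulated genes were listed because Ly6a and Ly6e belong to that group in many cells. Of 48 tested genes of that list, which holds neither of them, none was past the threshold by edgeR, DESeq2 or limma-voom, and the median log2 fold change was 0.02. By edgeR 11 had an unadjusted p under 0.05, 5 with positive and 6 with negative values, where 14.7% of all tested genes had. Groups did not overlap for 20 of the 48, beside the 22.6% of all tested genes. Igtp, an interferon-induced GTPase, was the 1 gene with an adjusted p under 0.05, at 134 ± 4.50 and 101 ± 8.68 CPM (SD, n = 3), log2 fold change -0.41, SE 0.08 and edgeR adjusted p 0.043, below the 1.5-fold limit. It is named here after its values were seen.

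Ly6a and the Ly6C proteins are read in T cells beside other state markers. Of 12 such surface genes 2 were past the threshold by edgeR, 1 in each direction, beside 1.45% of all tested genes. By edgeR 9 had an unadjusted p under 0.05, 5 with positive and 4 with negative values, where 14.7% of all tested genes had. Groups did not overlap for 8 of the 12, beside 22.6% of all tested genes. The median log2 fold change over the list was -0.01. Ccr7, a chemokine receptor for lymph node entry, fell, with 100.3 ± 14.6 CPM (SD, n = 3) without and 64.8 ± 6.5 CPM (SD, n = 3) with IL-10, a log2 difference of -0.63, SE 0.12 and edgeR adjusted p of 0.0364. Among the markers of cell types, Cd8b1 (log2 fold change 0.67) and Itgax (1.09) were past the threshold upwards. Itgax is a gene of dendritic cells and of activated T cells. Ncr1 (-1.15), an activating receptor of NK cells, was past it downwards. The 5 tested NK cell markers went both ways, 2 with positive and 3 with negative log2 fold changes, from -1.15 to 0.53. By edgeR 1 of the positive and 2 of the negative had an unadjusted p under 0.05. Of the 9 tested markers of dendritic cells, monocytes and macrophages, Itgax was the 1 past the threshold. By edgeR 7 had an unadjusted p under 0.05, 5 with positive and 2 with negative values, where 14.7% of all tested genes had. Groups did not overlap for 7 of the 9, beside 22.6% of all tested genes. Cd68, a lysosomal protein of macrophages, was at 20.4 to 29.4 CPM, and Zbtb46 and Xcr1, both known from dendritic cells, were at 4.66 to 6.99 and 3.47 to 6.56 CPM. Itgam, Xcr1 and Cd68 had log2 fold changes of 1.00, 0.60 and 0.32 and Zbtb46 one of -0.44, none past the threshold, while Flt3, Clec9a, Siglech and Csf1r were at no more than 0.327 CPM in any library. The summed level of the markers of dendritic cells, monocytes and macrophages was 577 to 931 CPM W/O IL-10 and 1001 to 1170 CPM W/ IL-10, nearly all of it Ccr2 at 512 to 1072 CPM, with 1 to 3 of the 14 markers in the table at 0 in each library. The part of such cells in the values of Ly6a and Ly6c2 was not tested. Of the 10 T cell markers 9 had a positive log2 fold change, where 7641 of 14916 tested genes had. Their summed level was 1780 to 2199 CPM W/O IL-10 and 2310 to 2426 CPM W/ IL-10. Cd8a had a log2 fold change of 0.56 and an edgeR adjusted p of 0.0369, below the 1.5-fold limit. The part of these T cell differences in the values of Ly6a and Ly6c2 was not tested either.

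The genes most alike in profile were found for each tested member as the 3 tested genes with the smallest Euclidean distance between centred log2 CPM values over the 6 libraries. For Ly6a these were Ccl3, a chemokine, at a distance of 0.22, Pim2, a kinase, at 0.23, and Gm8879 at 0.29. Ly6c2 had the T cell receptor segment Trav14d-3-dv8 at 0.22, Rbm3os at 0.24 and Eya2 at 0.25, and Ly6e had Ppp1r18 at 0.06, Pvt1 at 0.06 and Arpc3 at 0.08. The profile closest to that of Ly6d was Ighg2b, an immunoglobulin heavy chain gene, at 0.63, before Cyp4a12a and Amigo2 at 0.81 and 0.83. Among those of Ly6c1 were Ccl6 at 0.54 and Hdc at 0.56. Distances are in log2 CPM, and with 6 libraries in 2 groups a small distance is shared by any genes with the same difference between the groups.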

How the data were processed

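RNA sequencing of 6 libraries of double negative T cells was analysed, 3 with IL-10 and 3 without, as grouped by the labels. The authors deposited a table of raw counts per Ensembl gene. The submitters' processing notes name HISAT2, HTSeq and GRCm38, whereas the methods name TopHat and Cufflinks. Versions, strand and the treatment of multi-mapped reads were not given in the sources used here. The series' design text speaks of duplicates where 3 libraries a group are listed. The labels name a TruSeq kit and the methods a NEBNext kit. Of 29393 identifiers 29332 were found in GENCODE M21, which gave symbols, positions, lengths and coding sequences.

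Testing covered the 14916 genes that reached 10 counts in 3 or more libraries and was done with edgeR 4.0.16 in R 4.3.3 (TMM, quasi-likelihood test, Benjamini-Hochberg over all tested genes) and called at a fold change of at least 1.5 and an adjusted p under 0.05. DESeq2 1.42.0, limma-voom (limma 3.58.1), upper-quartile scaling, other filters, a correction for GC content and length, a replicate block and leaving out each library were alternatives. The fit was tested on simulated data. Totals of 21619420 to 23967088 counts put the level of 3 counts at 0.123 to 0.146 CPM. No pair of libraries shared equal non-zero counts for more than 4.63% of genes. Coding sequences were those of the lowest-numbered principal transcript. Promoters came from RefSeq and were found for 2 of the 6 members, Ly6c1 and Ly6c2.

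The members and gene lists were chosen with earlier results of these data known. The text names the members, every listed Ly6/uPAR relative with 10 or more counts in a library, the genes of other lists past the threshold (at most 8 a list) and the 3 genes nearest in profile to each tested member. Genes named outside that rule are marked so, or are listed markers. Some genes that the rule names are not reported here.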

Additional observations from a re-analysis of the deposited data

How the results depend on the processing

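Ly6a kept its direction and its side of the threshold under all 14 alternatives, and Ly6e and Ly6c1 did not pass under any that gave them a value. DESeq2 gave no adjusted p for Ly6c1, and requiring 10 counts in every library removed it. Ly6c2 passed with DESeq2 (log2 fold change 0.69), without a filter on low counts (0.68), with the replicate block (0.73) and with the block plus the GC content and length correction (0.73). Ly6d passed without a filter on low counts (-0.85). All 5 members kept their direction throughout. The number of genes past the threshold, 217, was 359 with DESeq2, 637 without a filter and 330 with the GC content and length correction plus the block. The family count, 1, was 2 with DESeq2, 4 without a filter (Ly6a, Ly6c2, Ly6d and Ly6g), 2 with the block and 2 with the correction plus the block. The cause of these differences was not tested. GPI anchor and interferon-stimulated genes past the threshold numbered 0 under every alternative.

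Leaving out each library in turn gave log2 fold changes of 1.24 to 1.40 for Ly6a, 0.49 to 0.93 for Ly6c2, 0.04 to 0.17 for Ly6e, -1.83 to -0.47 for Ly6d and -1.38 to -0.21 for Ly6c1. Genes past the threshold numbered 35 (without W/ IL-10 replicate 3) to 254. They numbered 57 without W/ IL-10 replicate 1, 98 without W/ IL-10 replicate 2 and 75 without W/O IL-10 replicate 2. Family genes past it numbered 1 to 3, and 3 (Ly6a, Ly6c2 and Ly6g) without W/O IL-10 replicate 1.

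The replicate block moved the number of genes past the threshold from 217 to 196. Whether equal replicate numbers pair the libraries was not settled. Deviations of same-numbered libraries had correlations of 0.05, -0.06 and 0.11, and those of differently numbered libraries -0.11 to 0.04. Replicates 1 and 3 correlated best with their own number and replicate 2 did not. With 3 libraries a group such correlations cannot decide it. Under the block the SE was 0.07 against 0.11 for Ly6a and 0.12 against 0.19 for Ly6c2.

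With the longest transcript as the length, levels without and with IL-10 were 249 and 627 CPM per kb for Ly6a, 470 and 504 for Ly6e and 1.06 and 0.548 for Ly6c1. At 5 to 40 counts for Ly6c1 and 20 to 128 for Ly6d, depth limits what could be seen of both, and Ly6k was not measurable.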
